A study of Mus musculus with 60 samples.

Results

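8 transcription factors that carry the output of the circadian clock or feed back on it were followed through 60 RNA-seq libraries from 6 tissues of aged mice, out of 52636 genes in the count table. The list was drawn up by name (Ciart, Dbp, Tef, Hlf, Nfil3, Bhlhe40, Bhlhe41 and Rora) and was selected on earlier readings of these same libraries, their levels and doxycycline effects included, so both are given here as a description, and adjusted p-values state only where the fit placed each gene. All 8 symbols matched 1 Ensembl gene each, and all 8 passed the filter on low counts in every tissue.

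The treated 4F mice carried 1 copy of a cassette that doxycycline switches on, encoding Sox2, Pou5f1 (Oct4), Myc and Klf4, together with 1 copy of rtTA, the activator doxycycline needs, at the Rosa26 locus of C57BL/6 mice. Their drinking water held doxycycline (1 mg/ml) for 2 days, then none for 5 days, week after week from 12 months of age until sampling at 22 months, 10 months in all. Untreated 4F mice of the same genotype were also 22 months old. Treated B6 mice, C57BL/6 without the cassette, had doxycycline for 5 months from 20 months of age and were 25 months old. For untreated B6 mice the labels give 25 months and the series text 26 months. Kidney, liver, lung, skeletal muscle, skin and spleen each gave 3 libraries per 4F arm, of 1 male and 2 females, and 2 male libraries per B6 arm. No label gives the hour at which tissue was taken, nor the interval since the last doxycycline, and none states that libraries come from separate animals, so the p-values measure only the spread between samples.

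In mammals the clock turns on a loop in which the proteins of Arntl (Bmal1) and Clock bind E-boxes (CACGTG) and switch on their own repressors, the Per and Cry genes, so that transcripts of E-box genes peak and fall once a day in most tissues. Dbp, Tef and Hlf encode the PAR bZIP activators, which bind D-boxes and pass the rhythm on to enzymes of liver and kidney, while the product of Nfil3 competes for the same D-boxes as a repressor. Bhlhe40 and Bhlhe41 encode basic helix-loop-helix repressors that bind E-boxes, and Ciart encodes a repressor of the Arntl-Clock activator. Rora encodes a nuclear receptor that activates Arntl and other genes through ROR elements, against the repressors Nr1d1 and Nr1d2. Because these transcripts cycle in different phases, a tissue's levels depend strongly on when it was taken.

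The genes lie on GRCm38 at the following places in the GENCODE annotation: Ciart (ENSMUSG00000038550) at chr3:95878503-95882251 on the minus strand, Dbp (ENSMUSG00000059824) at chr7:45705088-45710203 on the plus strand, Tef (ENSMUSG00000022389) at chr15:81802421-81826863 on the plus strand, and Hlf (ENSMUSG00000003949) at chr11:90336536-90390895 on the minus strand. Nfil3 (ENSMUSG00000056749) lies at chr13:52967209-52981073 on the minus strand, Bhlhe40 (ENSMUSG00000030103) at chr6:108660629-108666925 on the plus strand, Bhlhe41 (ENSMUSG00000030256) at chr6:145858243-145865558 on the minus strand, and Rora (ENSMUSG00000032238) at chr9:68653786-69388246 on the plus strand. Both Bhlhe genes are on chromosome 6 but far apart. 6 of the 8 overlap a gene on the other strand, and since the strand setting of the counting is not given in the sources used here, reads in the overlap cannot be told apart. The partner of Dbp, Sphk2, reached 115 CPM (counts of a gene per 1000000 counts of its library), beside a median of 73.7 CPM for Dbp over all libraries, while the partners of the other 5 stayed at or below 9.45 CPM.

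The promoter sequences below show which of these genes carry the clock's own binding letters next to their start site, since Ciart, Dbp and Tef varied together in the counts. RefSeq windows on GRCm38.p6, from 250 bases before to 50 bases after the start, were held for 7 of the 8 genes in 8 windows, Tef having 2 alternative starts; Bhlhe40 had no entry. They were searched on both strands for the E-box CACGTG, the D-boxes TTATGTAA and TTACGTAA, and the ROR half-site TAGGTCA, which reads TGACCTA on the other strand. Each sequence runs 5′ to 3′ on the gene's strand, with motif matches in capitals. Ciart (chr3:95882179-95882478, minus strand), the 2 starts of Tef (chr15:81802423-81802722 and chr15:81811164-81811463, plus strand) and Bhlhe41 (chr6:145865371-145865670, minus strand) are shown for their E-boxes, and Nfil3 (chr13:52980990-52981289, minus strand) for its ROR half-site.
Ciart: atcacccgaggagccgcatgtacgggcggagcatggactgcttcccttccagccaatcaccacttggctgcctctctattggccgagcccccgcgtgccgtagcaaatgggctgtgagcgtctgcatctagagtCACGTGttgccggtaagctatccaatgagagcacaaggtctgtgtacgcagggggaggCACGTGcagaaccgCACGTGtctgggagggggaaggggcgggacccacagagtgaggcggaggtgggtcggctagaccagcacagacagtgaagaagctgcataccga
Tef, first start: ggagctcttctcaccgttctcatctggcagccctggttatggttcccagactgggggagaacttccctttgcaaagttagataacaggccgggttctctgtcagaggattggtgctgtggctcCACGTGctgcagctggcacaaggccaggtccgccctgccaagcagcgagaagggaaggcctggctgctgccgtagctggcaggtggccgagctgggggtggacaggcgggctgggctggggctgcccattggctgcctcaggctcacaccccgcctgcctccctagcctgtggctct
Tef, second start: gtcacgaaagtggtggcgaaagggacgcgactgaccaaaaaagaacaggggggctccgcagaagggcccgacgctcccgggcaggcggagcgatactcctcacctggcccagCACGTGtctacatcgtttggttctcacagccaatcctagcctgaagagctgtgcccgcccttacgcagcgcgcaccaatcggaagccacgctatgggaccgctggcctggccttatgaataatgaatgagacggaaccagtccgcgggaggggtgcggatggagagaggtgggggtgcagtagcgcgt
Bhlhe41: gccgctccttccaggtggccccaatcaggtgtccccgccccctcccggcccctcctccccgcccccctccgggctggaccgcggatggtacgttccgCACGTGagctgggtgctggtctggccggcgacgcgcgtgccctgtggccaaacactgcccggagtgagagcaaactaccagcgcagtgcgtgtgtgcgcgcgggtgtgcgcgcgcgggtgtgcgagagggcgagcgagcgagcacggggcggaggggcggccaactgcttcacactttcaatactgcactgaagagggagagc
Nfil3: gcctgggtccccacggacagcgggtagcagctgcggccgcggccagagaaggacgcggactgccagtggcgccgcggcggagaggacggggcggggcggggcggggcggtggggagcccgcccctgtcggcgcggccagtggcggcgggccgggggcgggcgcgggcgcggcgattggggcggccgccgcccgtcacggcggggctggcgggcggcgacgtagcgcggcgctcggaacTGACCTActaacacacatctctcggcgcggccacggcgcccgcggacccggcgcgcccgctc

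Ciart held 3 E-boxes, whose first bases lay at positions -116, -58 and -44 from the start. Of the 32851 windows in the table, 7.15% held at least 1 E-box and 29 windows (0.0883%) held 3 or more. Both Tef windows held 1 E-box, at -127 from the first start and -138 from the second, and Bhlhe41 held 1 at -153. The ROR half-site of Nfil3 lay at -12, and 2.61% of all windows held such a half-site. The windows of Dbp, Hlf and Rora held none of the 4 motifs, and no window of these genes held either D-box (0.938% and 0.119% of all windows did). A match is only a run of letters in this window, and its absence says nothing of sites elsewhere.

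Library totals ran from 18517963 to 43176392 counts, and the lowest count of any of the 8 genes in any library was 22, for Ciart. Markers of the labelled tissue were present in every library, at no less than 293 CPM summed over 4 B cell genes in spleen. 6 untreated libraries had been found earlier to hold another tissue's or the other sex's transcripts or an extreme cell makeup (in 4F mice replicate 1 of skin, replicate 2 of lung and of spleen and replicate 3 of muscle, and in B6 mice replicate 2 of liver and of spleen), and results that rest on them are given with and without them. Treated libraries outside these 6 could be as extreme in a marker sum. 4 neutrophil markers summed to 10100 CPM in treated 4F spleen replicate 2, against 10400 CPM in untreated B6 spleen replicate 2. 4 alveolar macrophage markers were highest among lungs in treated 4F replicate 2, at 12400 CPM. Every skin library held muscle transcripts. 4 muscle markers summed to 32600 to 73800 CPM in treated 4F skins (highest in replicate 3) and 35600 to 53400 CPM in untreated 4F skins. They summed to 64700 to 68500 CPM in treated and 56100 to 58300 CPM in untreated B6 skins, against 95300 CPM or more in muscle itself. Their part in the skin levels and skin effects of the 8 factors was not tested. Of the cassette genes, Pou5f1 was highest at 0.206 CPM (8 counts) in treated 4F skin, Klf4 ran from 18.4 to 23.7 CPM in treated 4F spleens, against 12.4 to 15.1 CPM in untreated 4F spleens, and Myc in 4F liver had a log2 fold change of 1.42 ± 0.35 (SE), with overlapping arms. Values below 0 in 4F mice included Sox2 in lung (-0.53 ± 0.37), Klf4 in skin (-0.91 ± 0.57) and Myc in muscle (-0.86 ± 0.57) and skin (-0.76 ± 0.45, all SE). None of the cassette genes tested reached an edgeR adjusted p under 0.05 in any 4F tissue. In whole tissue, fewer cells of a type and less RNA per cell cannot be told apart.

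Levels across tissues were examined first. 6 of the 8 genes (Ciart, Dbp, Tef, Hlf, Bhlhe40 and Rora) had their lowest mean in spleen, Nfil3 was lowest in kidney and Bhlhe41 in liver. By CPM, the ratio of the highest to the lowest tissue mean was 17.6 for Hlf, 11.3 for Ciart, 9.6 for Bhlhe41, 8.61 for Rora, 5.2 for Tef, 4.66 for Dbp, 4.12 for Nfil3 and 2.58 for Bhlhe40. Neighbouring tissues in these orders mostly overlapped, and the exceptions were 4 steps: Hlf in kidney above liver, Ciart in muscle above spleen, Bhlhe41 in skin above kidney, and Rora in liver above spleen. Levels of different genes were compared per kilobase of exon. On that scale Tef averaged highest in 4 tissues, from 44.7 to 63.5 CPM per kilobase, and Bhlhe40 in liver (64.0) and spleen (24.8).

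**Figure D1:**
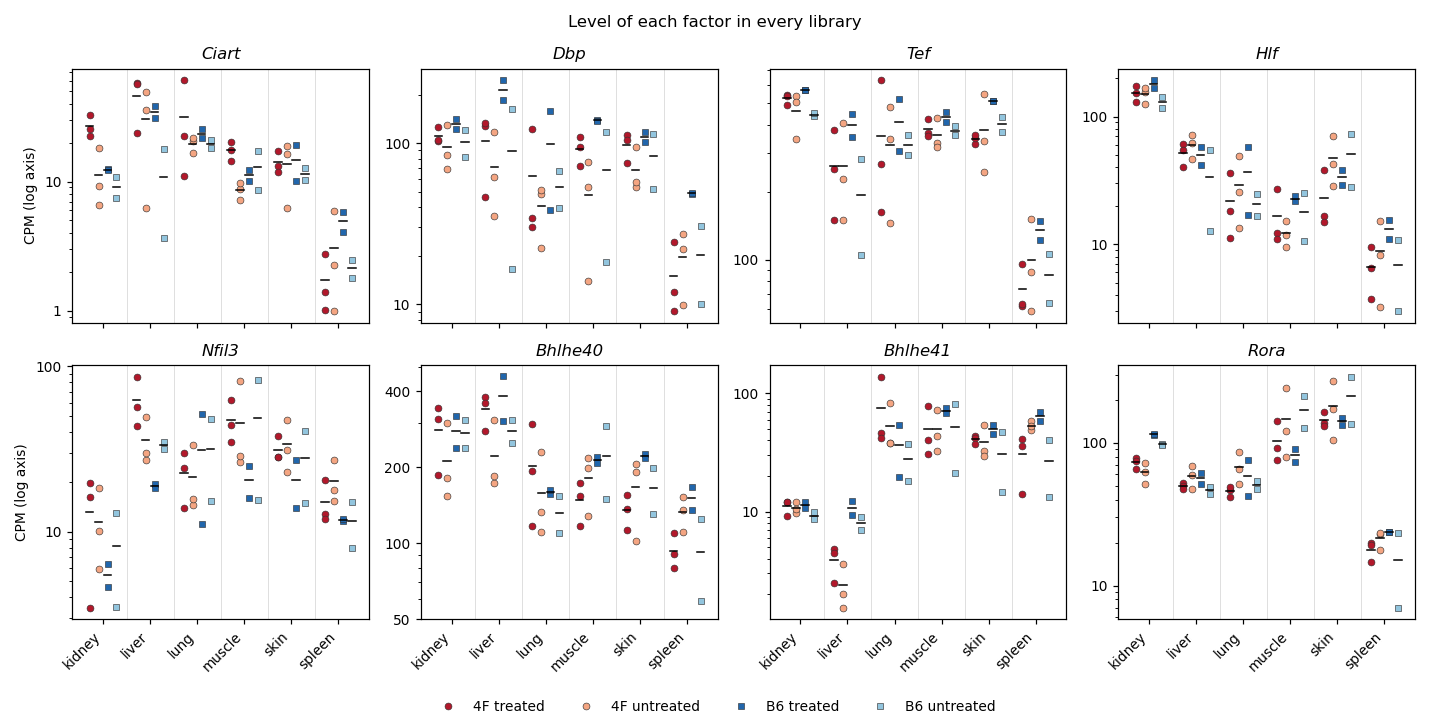
CPM (log axis) of each factor in every library, by tissue; circles are 4F libraries (3 per arm) and squares B6 libraries (2 per arm), in dark colours when treated and pale when untreated, and black bars are arm means. Spleen is lowest for 6 of the 8 genes, and in liver untreated B6 replicate 2 lies at 16.5 CPM for Dbp, below the other 9 libraries.

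Among the PAR bZIP activators, Hlf was concentrated in kidney, while Tef and Dbp differed less between tissues. Tef in kidney, its highest tissue, read 545, 540 and 490 CPM in treated 4F, 345, 538 and 505 in untreated 4F, 571 and 574 in treated B6, and 438 and 450 in untreated B6 libraries. All but 1 of those libraries lay above 400 CPM, and the mean was 500.0 ± 71.5 (SD, n = 10), against 96.1 ± 35.4 in spleen. Skin (mean 400.0), muscle (384), lung (352) and liver (276) came between, each overlapping the next. Hlf in kidney read 175, 152 and 131 CPM in treated 4F, 155, 126 and 167 in untreated 4F, 166 and 193 in treated B6, and 143 and 116 in untreated B6 libraries. Every one of these exceeded the highest Hlf value of any other tissue, 73.4 CPM in skin. The next tissue, liver, averaged 50.2 ± 16.4 CPM and spleen 8.67 ± 4.64 (SD, n = 10 each).

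Dbp averaged 113 ± 73.3 CPM in liver and 108 ± 23.6 CPM in kidney (SD, n = 10 each), with very different spreads. In liver it read 128, 133 and 46.3 CPM in treated 4F, 35.3, 61.4 and 117 in untreated 4F, 246 and 184 in treated B6, and 162 and 16.5 in untreated B6 libraries. The highest liver library thus held 14.9 times the lowest, whereas in kidney the ratio was 2.07. Skin, muscle, lung and spleen followed at 88.3, 83.2, 61.3 and 24.2 CPM.

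By CPM, Nfil3, the D-box repressor, ordered the tissues differently from the activators it opposes. Its mean was highest in muscle, at 41.7 ± 25.4 CPM, and lowest in kidney, at 10.1 ± 6.27 CPM (SD, n = 10 each), the tissue where Tef and Hlf were highest by CPM. Liver came 2nd for Nfil3 and was highest for Dbp. With trimmed-mean (TMM) scaling over all 60 libraries, Nfil3 (63.7) and Tef (591) were both highest in muscle, and Dbp was 2nd there (129). In muscle it read 34.9, 43.9 and 62.7 CPM in treated 4F, 26.3, 81.8 and 28.6 in untreated 4F, 16.0 and 24.9 in treated B6, and 15.5 and 82.4 in untreated B6 libraries. 2 untreated libraries, replicate 2 of each genotype, stood above the rest. Per kilobase of exon, the kidney mean of Nfil3 was 5.0 CPM, beside 63.5 for Tef, 36.1 for Dbp and 22.8 for Hlf, whereas in spleen Nfil3 (7.53) and Dbp (8.1) were close.

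The 2 helix-loop-helix repressors had their highest levels in different tissues. Bhlhe40 in liver, its highest tissue, read 278, 382 and 360 CPM in treated 4F, 308, 173 and 185 in untreated 4F, 306 and 459 in treated B6, and 309 and 249 in untreated B6 libraries. Its mean there was 301 ± 87.0 CPM (SD, n = 10). The lowest liver, at 173 CPM, was still above the highest spleen, at 167 CPM, although every neighbouring pair of tissues in its order overlapped. Bhlhe41 was lowest where Bhlhe40 was highest, with 5.66 ± 3.59 CPM in liver and 10.7 ± 1.30 in kidney (SD, n = 10 each). In liver it read 4.79, 4.5 and 2.51 CPM in treated 4F, 1.54, 2.01 and 3.59 in untreated 4F, 12.2 and 9.42 in treated B6, and 9.02 and 7.05 in untreated B6 libraries, a pair of gene and tissue chosen after its values were seen. By CPM every B6 liver lay above every 4F liver, but with TMM scaling untreated B6 replicate 2, which stands apart, had a log2 CPM of 2.33, below treated 4F replicate 1 at 2.41. Genotype and age cannot be told apart here, as B6 mice were older. B6 mice were also all male. By CPM the male 4F livers, at 4.79 CPM (treated replicate 1) and 3.59 CPM (untreated replicate 3), lay below every B6 liver as well. With 1 male per 4F arm, the part of sex was not tested. Bhlhe41 in muscle read 77.8, 40.1 and 30.5 CPM in treated 4F, 43.7, 32.8 and 72.2 in untreated 4F, 75.1 and 67.8 in treated B6, and 81.9 and 21.2 in untreated B6 libraries. That averaged 54.3 ± 22.8 CPM, and lung (51.4), spleen (43.3) and skin (40.0) followed with overlapping ranges.

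Ciart ranged from 0.992 to 61.0 CPM over all libraries, with a mean of 2.84 ± 1.82 CPM in spleen and 32.1 ± 19.4 CPM in liver (SD, n = 10 each). In liver it read 57.9, 56.7 and 23.9 CPM in treated 4F, 6.29, 49.7 and 35.9 in untreated 4F, 38.4 and 31.1 in treated B6, and 17.9 and 3.65 in untreated B6 libraries. 1 untreated library of each genotype lay under 7 CPM, far below the other 8. Rora was highest in skin, where it read 165, 137 and 130 CPM in treated 4F, 104, 271 and 172 in untreated 4F, 150 and 133 in treated B6, and 136 and 290 in untreated B6 libraries. Its skin mean of 169 ± 61.9 CPM overlapped muscle (125 ± 58.9), and spleen was lowest at 19.6 ± 5.41 (SD, n = 10 each). With trimmed-mean (TMM) scaling over all 60 libraries, which raised muscle and liver by about 1.5 times and lowered lung and spleen, 6 genes kept their highest tissue, while Tef (591) and Rora were highest in muscle. The spans between tissues changed with it: on that scale Ciart averaged 48.5 CPM in liver and 2.06 in spleen, Hlf 136 in kidney and 6.27 in spleen, and Bhlhe40 446 in liver and 84.5 in spleen. Dbp then averaged 173 in liver, 129 in muscle, 96.6 in kidney and 17.5 in spleen, so its liver and kidney means were close only by CPM.

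Within a tissue these genes varied more than most genes tested, though not everywhere. The SD of log2 CPM over the 10 libraries of a tissue ran from 0.53 to 1.46 for Ciart and from 0.4 to 1.37 for Dbp, both highest in liver, where the median gene had 0.44. In liver 96.7% of tested genes had a smaller SD than Ciart and 95.8% a smaller SD than Dbp. Tef in muscle (0.21) and Bhlhe41 in kidney (0.17) were among the steadier genes, with 11.8% and 17.7% of genes below them.

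The titles number the libraries in 10 runs of 6 consecutive numbers, each with 1 library of each tissue from the same arm, sex and replicate. The labels do not say that a run is 1 mouse. Values were centred on the mean of each tissue (TMM log2 CPM), and several genes then leaned the same way through a whole run. Dbp lay above its tissue mean in 6 of 6 tissues of treated B6 replicate 2, with a mean deviation of 0.98 on the log2 scale, and of untreated B6 replicate 1 (0.56). It lay below in 6 of 6 tissues of untreated B6 replicate 2, with a mean of -1.22 and -2.90 in liver. Tef and Ciart lay below the tissue mean in 6 of 6 tissues of untreated 4F replicate 1, with means of -0.63 and -0.95, and Tef was the lowest of all 10 libraries there in 4 tissues. For Dbp the 2 untreated B6 runs thus lay on opposite sides of the mean in every tissue.

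**Figure D2:**
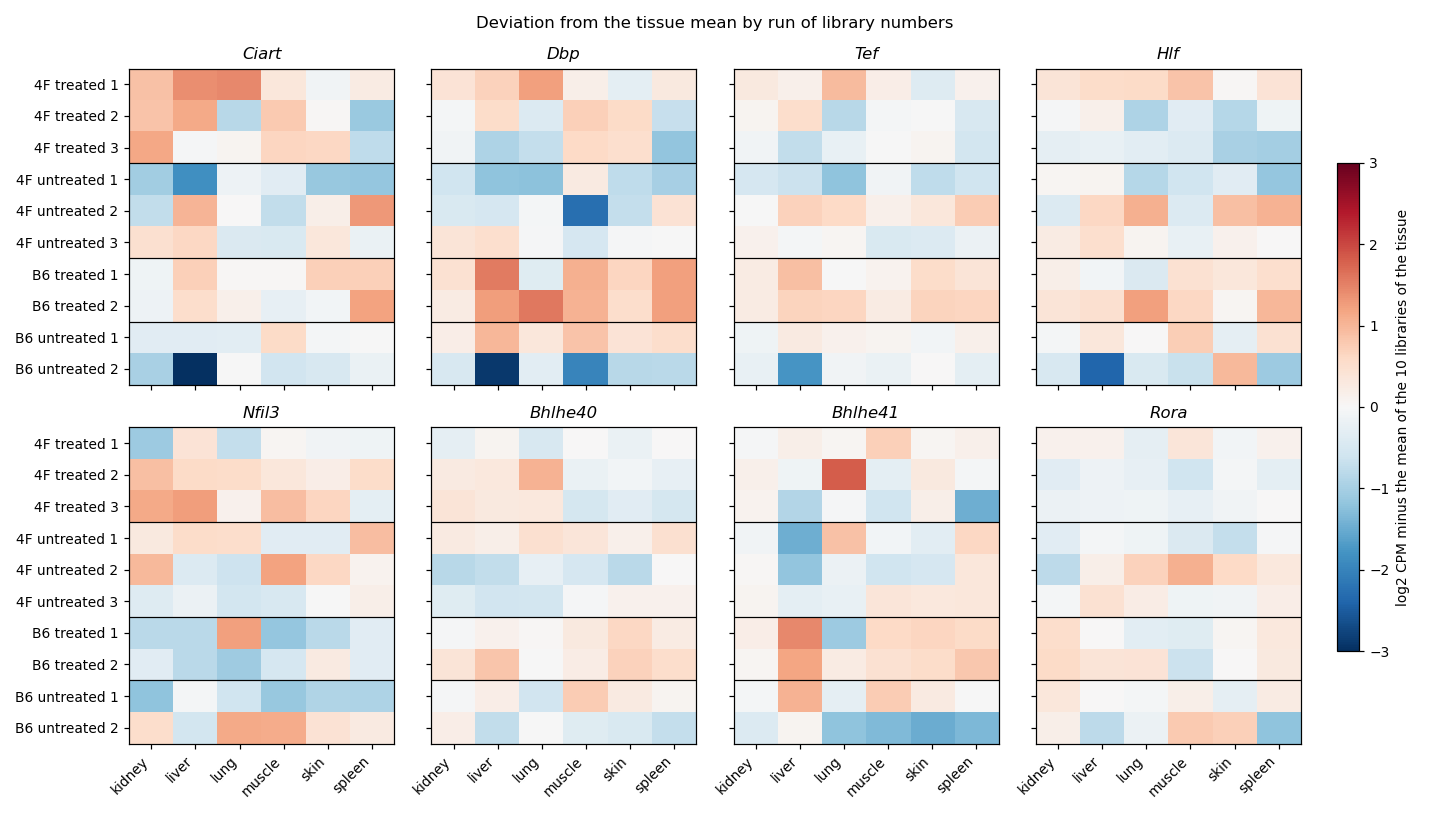
Deviation of each library from the mean of its tissue (log2 CPM, colour scale from -3 to 3) for each factor; columns are tissues and rows are the 10 runs of library numbers, ordered treated 4F, untreated 4F, treated B6 and untreated B6, with the replicate number. Values under -3, which occur for Ciart in untreated B6 liver, take the end colour. For Dbp the row of treated B6 replicate 2 is above 0 in 6 of 6 tissues and that of untreated B6 replicate 2 below 0 in 6 of 6.

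Hlf was above its tissue mean in 6 of 6 tissues of treated 4F replicate 1 (0.47 on average) and below it in 6 of 6 of treated 4F replicate 3 (-0.54). Nfil3 was above in 6 of 6 tissues of treated 4F replicate 2 (0.52) and below in 6 of 6 of untreated B6 replicate 1 (-0.81). Bhlhe40 was above in 6 of 6 tissues of untreated 4F replicate 1 (0.32) and below in 6 of 6 of untreated 4F replicate 2 (-0.52). For Hlf and Bhlhe40, 2 runs of the same arm thus leaned opposite ways. Other genes leaned with the runs as well: Fkbp5, which glucocorticoids induce, was below its tissue mean in 6 of 6 tissues of treated B6 replicate 2 (-1.21) and untreated 4F replicate 1 (-1.37) and above in 6 of 6 of untreated B6 replicate 2 (1.23) and untreated 4F replicate 2 (1.52). The core clock gene Per2 was below in 6 of 6 tissues of untreated 4F replicate 1 (-0.80) and above in 6 of 6 of untreated 4F replicate 2 (0.68). Their part in the values of the 8 factors was not tested.

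Correlations over the 60 centred libraries describe which factors moved together; libraries share tissues, runs and arms, so no p is given. Tef correlated with Ciart, Dbp and Hlf at a Pearson's r of 0.72 each, and Ciart with Dbp at 0.69. Ciart, Dbp and Tef were positively correlated with each other in 6 of 6 tissues taken alone. Nfil3 went against Dbp (r = -0.50), negative in 6 of 6 tissues, and against Hlf (-0.37) and Tef (-0.31). Bhlhe40 and Bhlhe41 correlated at 0.59 and neither followed Tef (0.01 and 0.17). With Dbp, Bhlhe41 stood at 0.51 (0.57 without the 6 libraries that stand apart) and Bhlhe40 at 0.32 (0.23). Rora was closest to Hlf (0.51) and Tef (0.41). Without the 6 libraries that stand apart, the value was 0.65 for Dbp with Tef, 0.59 for Ciart with Tef and with Dbp, 0.60 for Tef with Hlf and for Bhlhe40 with Bhlhe41, and -0.65 for Dbp with Nfil3. Other values were lower without them, at 0.48 for Dbp with Hlf, 0.38 for Ciart with Hlf, 0.34 for Rora with Hlf and 0.24 for Rora with Tef.

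**Figure D3:**
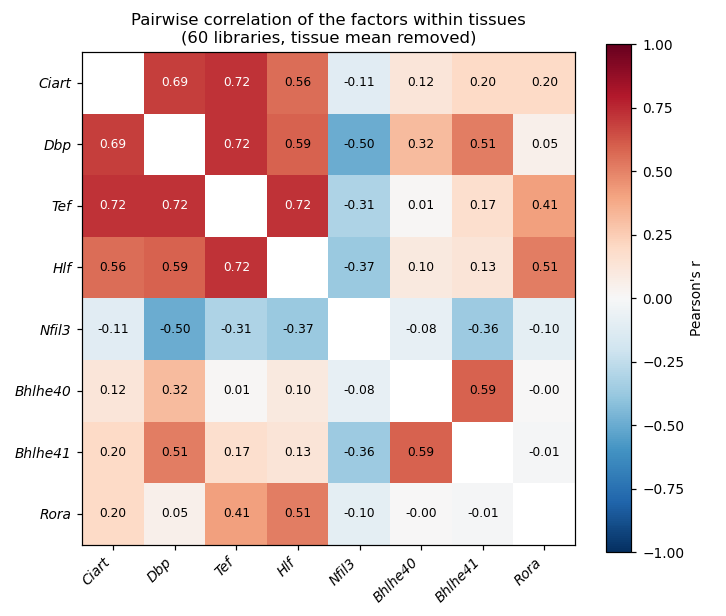
Pearson's r between each 2 of the 8 factors over 60 libraries, after the mean of each tissue was removed from log2 CPM (red positive, blue negative). Ciart, Dbp, Tef and Hlf form a block of positive values from 0.56 to 0.72, and Dbp with Nfil3 is the lowest pair at -0.50.

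Among 12365 named genes tested in all 6 tissues, the gene most like Tef was the core clock gene Per3 (r = 0.92, Spearman's rho = 0.87, and 0.91 without the 2 libraries farthest from the median), followed by its relative Per2 (0.83) and Mapt (0.80). For Ciart the closest were Tef (0.72), Per3 (0.71) and Kifc2 (0.70), and for Dbp Trak1 (0.77), Habp4 (0.76) and Gamt (0.75). Hlf was closest to Yap1 (0.79), Pard3 (0.79) and Lrig3 (0.77), and Nfil3 to Cebpd (0.64), Serpina3f (0.64) and Ddit4 (0.62). Only Tef, Ciart and Bhlhe40 had another clock gene or another of the 8 among their 3 closest genes. Bhlhe40 and Bhlhe41 shared Pkdcc (0.60 and 0.65), and Rora was closest to Zfp507 (0.81), Ube4a (0.76) and Arhgap35 (0.76). At the negative end stood Ncoa7 for Ciart (-0.70), Zwilch for Dbp (-0.75), Smc2 for Tef (-0.73), Mthfd2 for Hlf (-0.72), Dock4 for Nfil3 (-0.57), Hif3a for Bhlhe40 (-0.65), the metallothionein Mt2 for Bhlhe41 (-0.71) and Sem1 for Rora (-0.74). Arntl, the activator of the loop, ran against Dbp (-0.67), Tef (-0.61) and Ciart (-0.48) and with Nfil3 (0.42), and Nr1d1, a repressor of Arntl, ran with Dbp (0.70). Not every core clock gene did likewise. Per1, unlike Per2 and Per3, stood at -0.33 with Dbp, 0.04 with Tef, 0.15 with Ciart and 0.55 with Nfil3. Cry1 was near 0 with Ciart (-0.01) and Dbp (-0.08).

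The effect of doxycycline was fitted in each tissue with edgeR's quasi-likelihood test, as a log2 fold change of treated over untreated libraries with its standard error (SE), adjusted for multiple testing over all genes of the tissue, and a gene was called at an adjusted p under 0.05. In 4F mice, where the cassette is present, 0 of the 8 factors were called in any tissue; the share of all genes called was 0.00609% in muscle (1 of 16427) and 0% in the other 5 tissues. Of the 48 gene and tissue pairs, 29 lay above 0 and 19 below, 3 had an unadjusted p under 0.05 (Ciart in kidney and muscle and Nfil3 in liver), and DESeq2 called 1, Ciart in kidney. Over all genes in 4F mice, DESeq2 called 17 of 17039 in kidney, 8 of 16292 in liver, 13 of 19289 in lung, 83 of 16427 in muscle, 597 of 18235 in skin and 25 of 18574 in spleen. The share of all genes with an edgeR unadjusted p under 0.05 ran from 1.79% in liver to 12.4% in skin. Kidney had 8 of 8 above 0 (median 0.24, all genes -0.01; 0.15 with 7 of 8 above 0 without untreated replicate 2) and spleen 0 of 8 (median -0.44, all genes 0). The medians were 0.56 in liver, 0.27 in lung, 0.19 in muscle and 0.11 in skin, with 5, 5, 6 and 5 of 8 above 0. Without untreated 4F replicate 2, the spleen median was 0.04 with 4 of 8 above 0. 4 pancreatic acinar markers summed to at most 1.5 CPM in treated 4F spleens, with 3 of the 4 at 0 in replicate 2, and to 132, 1520 and 6.45 CPM in untreated 4F spleens, and their part in the result was not tested. The muscle median was 0.00 without untreated replicate 3 and the skin median -0.12 without untreated replicate 1, both libraries that stand apart. Leaving out other single libraries moved the medians to between 0.11 and 0.54 in liver, -0.13 and 0.35 in lung, -0.02 and 0.42 in muscle and -0.01 and 0.38 in skin.

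**Figure D4:**
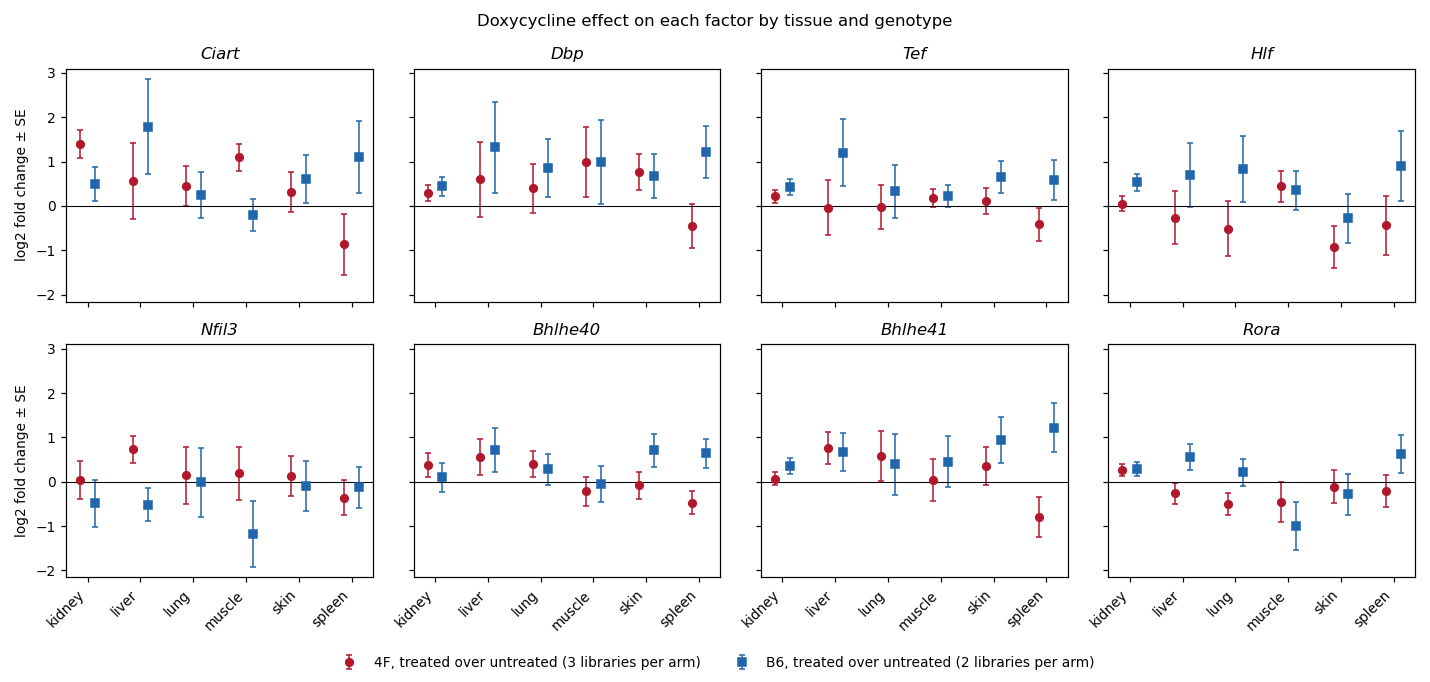
log2 fold change of treated over untreated libraries with its SE (edgeR) for each factor and tissue, in 4F mice (red circles) and B6 mice (blue squares); the line marks 0. None of the 96 values was called, and in spleen 8 of 8 4F values lie below 0 and 7 of 8 B6 values above 0.

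Ciart had the highest 4F log2 fold change of the 8 factors in kidney and in muscle. In kidney it read 22.6, 25.7 and 32.7 CPM in treated 4F libraries, against 6.57, 9.20 and 18.1 CPM in untreated 4F libraries. The arms did not overlap, and the log2 fold change was 1.40 ± 0.32 (SE, edgeR adjusted p = 0.923). It stayed between 1.14 and 1.91 when any 1 library was left out, and DESeq2 gave 1.41 with an adjusted p of 0.0175. In muscle Ciart read 14.4, 20.4 and 17.4 CPM in treated 4F libraries, against 8.74, 7.15 and 9.77 CPM in untreated 4F libraries. These arms did not overlap either (1.10 ± 0.30, edgeR adjusted p = 0.54), and the value ran from 0.96 to 1.28 with 1 library left out. Of the genes tested, 2.49% in kidney and 3.49% in muscle had treated 4F libraries wholly above untreated ones, and Ciart was the 1 of the 8 factors to do so in each; none did the reverse, as did 3.92% and 4.61% of genes.

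By CPM, 2 genes lay lower in treated 4F spleen without overlap, and only Bhlhe41 did so with TMM scaling as well. Bhlhe41 read 41.4, 35.8 and 14.1 CPM in treated 4F spleens, against 58.0, 48.6 and 53.2 CPM in untreated 4F spleens, with 1 treated library far under the other 2. The log2 fold change was -0.79 ± 0.45 (SE, edgeR adjusted p = 0.991), and it ran from -1.16 to -0.39 with 1 library left out (-0.39 without treated replicate 3). Bhlhe40 was the other, at 110, 90.9 and 79.8 CPM in treated 4F spleens, against 153, 111 and 136 CPM in untreated 4F spleens (-0.47 ± 0.26, and -0.27 without untreated replicate 1). The arms nearly touched, and on TMM log2 CPM they overlapped, with treated replicate 1 at 6.82 and untreated replicate 2 at 6.81. 6 T and NK cell markers, counted in every spleen, summed to 311, 197 and 140 CPM in treated 4F spleens, against 198, 469 and 347 CPM in untreated 4F spleens. 4 neutrophil markers summed to 197, 10100 and 5780 CPM in treated 4F spleens, against 2840, 4670 and 3160 CPM in untreated 4F spleens. The 4 B cell genes ran from 293 to 2050 CPM in treated 4F spleens, against 672 to 2140 CPM in untreated 4F spleens. The part of these cell types in the Bhlhe40 and Bhlhe41 values was not tested. None of the 8 was wholly higher there, and 5.33% of genes were wholly lower and 2.5% wholly higher in treated 4F spleens. Ciart, Dbp, Tef and Hlf in 4F spleen stood at -0.86, -0.45, -0.41 and -0.44 with all libraries, and at 0.35, 0.18, 0.16 and 0.54 without untreated replicate 2.

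In lung, Rora read 46.7, 41.6 and 48.7 CPM in treated 4F libraries, against 51.8, 86.7 and 65.5 CPM in untreated 4F libraries. The arms were just apart by CPM and overlapped with TMM scaling (-0.51 ± 0.25, SE, edgeR adjusted p = 0.737), and the value was -0.26 without untreated replicate 2, the library that stands apart. It was the only factor out of overlap by CPM in 4F lung, where 8.35% of genes were wholly lower and 4.23% wholly higher in treated libraries. Bhlhe41 in lung read 46.6, 138 and 41.5 CPM in treated 4F libraries, against 82.6, 38.1 and 38.2 CPM in untreated 4F libraries, and its 2 high libraries were the 2 with the most RNA of 4 alveolar macrophage markers, at 12400 and 6020 CPM, against 2340 CPM or less in the other 4F lungs. Among B6 lungs the order ran the other way. Treated B6 replicate 2 had the most Bhlhe41 of these, 53.6 CPM, beside the smallest marker sum, 198 CPM. Untreated B6 replicate 2 had the least Bhlhe41, 18.3 CPM, beside the largest B6 sum, 691 CPM. All 4 markers had counts in every lung, and their part in the Bhlhe41 values was not tested. No factor was out of overlap in 4F liver, where 5.87% of genes were wholly higher and 3.93% wholly lower in treated libraries, or in 4F skin, where 3.86% were wholly higher and 10% wholly lower.

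By gene, the 4F values lay above 0 in 5 of 6 tissues for Ciart (median 0.50), Dbp (0.50), Nfil3 (0.13) and Bhlhe41 (0.21), in 3 of 6 for Tef (0.04) and Bhlhe40 (0.14), in 2 of 6 for Hlf (-0.35) and in 1 of 6 for Rora (-0.24). 3 further pairs, chosen after their values were seen, show how wide the overlapping arms were. Nfil3 in liver read 43.7, 56.7 and 86.5 CPM in treated 4F livers, against 49.7, 27.3 and 30.1 CPM in untreated 4F livers (0.73 ± 0.30, SE, edgeR adjusted p = 1.0). 1 untreated liver lay inside the treated range. 6 macrophage markers, each counted in every liver, summed to 461, 740 and 1190 CPM in the same treated 4F livers, against 378, 284 and 311 CPM in the untreated ones, and their part in the Nfil3 values was not tested. Dbp in muscle read 72.5, 109 and 94.0 CPM in treated 4F muscles, against 75.9, 13.9 and 53.3 CPM in untreated 4F muscles (0.99 ± 0.78, edgeR adjusted p = 0.644), and leaving out untreated replicate 2 gave 0.51, leaving out replicate 1 of that arm 1.91. Hlf in skin read 37.9, 16.6 and 14.9 CPM in treated 4F skins, against 28.6, 70.3 and 42.2 CPM in untreated 4F skins (-0.93 ± 0.47, edgeR adjusted p = 0.424), and the value was -0.37 without untreated replicate 2. So in 4F skin the activators Dbp (0.77 ± 0.41) and Hlf lay on opposite sides of 0, both with overlapping arms.

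In B6 mice, the study's control for doxycycline without the cassette, 0 of the 8 factors were called in any tissue by edgeR and 0 by DESeq2. By edgeR 2 of 48 pairs had an unadjusted p under 0.05 (Tef and Hlf in kidney), and 0% of all genes were called in each tissue. Among all genes, DESeq2 called 31 of 18092 in kidney, 28 of 13133 in liver, 0 of 19289 in lung, 14 of 16427 in muscle, 92 of 16432 in skin and 161 of 16413 in spleen. The share of all genes with an edgeR unadjusted p under 0.05 ran from 0.353% in lung to 9.39% in liver. 37 of the 48 pairs lay above 0. The median of the 8 log2 fold changes was 0.40 in kidney, 0.71 in liver, 0.30 in lung, 0.09 in muscle, 0.63 in skin and 0.77 in spleen, while the medians of all genes lay between -0.08 and 0.03. Dbp, Tef and Bhlhe41 were above 0 in 6 of 6 tissues and Nfil3 was below 0 in 6 of 6. Without untreated B6 replicate 2 the medians were 0.22 in kidney, 0.30 in liver, 0.49 in lung, -0.22 in muscle, 0.41 in skin and 0.48 in spleen, and Nfil3 stood above 0 in 5 tissues, all but liver, and Bhlhe41 in muscle at -0.24. Without untreated B6 replicate 1 they were 2.02 in liver, 1.30 in spleen and 0.55 in muscle, and without treated B6 replicate 2 the lung median was -0.12, with Dbp at -0.41, Tef at -0.04 and Bhlhe41 at -0.44 there.

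Liver held the widest B6 differences. Ciart read 38.4 and 31.1 CPM in treated B6 livers, against 17.9 and 3.65 CPM in untreated B6 livers (log2 fold change 1.79 ± 1.07, SE, edgeR adjusted p = 0.531). Dbp read 246 and 184 CPM in treated B6 livers, against 162 and 16.5 CPM in untreated B6 livers (1.32 ± 1.03, edgeR adjusted p = 0.609). Tef read 448 and 354 CPM in treated B6 livers, against 282 and 105 CPM in untreated B6 livers (1.20 ± 0.76, edgeR adjusted p = 0.543). For all 3 genes the lower untreated value came from replicate 2, and without it the log2 fold changes were 0.97, 0.41 and 0.52. 6 macrophage markers summed to 360 and 270 CPM in treated B6 livers, against 257 CPM in untreated replicate 1 and 6260 CPM in untreated replicate 2. 4 neutrophil markers summed to 51.7 and 7.33 CPM in treated B6 livers, against 8.46 and 1660 CPM in the same untreated livers. Every one of these markers had counts in each liver, and their part in the result was not tested. 5 factors were wholly higher and 1, Nfil3, wholly lower in treated B6 livers, at 19.5 and 18.4 CPM against 31.8 and 35.1 CPM in untreated B6 livers, beside 9.11% of genes wholly higher and 23.6% wholly lower.

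Spleen had 7 of 8 factors wholly higher in treated B6 libraries and 0 wholly lower, beside 21.2% and 16.6% of genes. Dbp read 48.4 and 49.0 CPM in treated B6 spleens, against 30.6 and 9.99 CPM in untreated B6 spleens (1.22 ± 0.59, SE, edgeR adjusted p = 0.701). Bhlhe41 read 58.7 and 69.9 CPM in treated B6 spleens, against 40.1 and 13.2 CPM in untreated B6 spleens (1.22 ± 0.55, edgeR adjusted p = 0.701). Ciart read 4.06 and 5.77 CPM in treated B6 spleens, against 2.48 and 1.80 CPM in untreated B6 spleens (1.10 ± 0.81, edgeR adjusted p = 0.715). Both untreated spleens were below both treated ones for each gene, and Dbp and Bhlhe41 were each at 0.70 without untreated replicate 2. 4 neutrophil markers summed to 1800 and 463 CPM in treated B6 spleens, against 603 CPM in untreated replicate 1 and 10400 CPM in untreated replicate 2, and their part in the result was not tested.

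In muscle, Dbp read 139 and 138 CPM in treated B6 libraries, against 118 and 18.2 CPM in untreated B6 libraries (1.00 ± 0.95, SE, edgeR adjusted p = 0.852), and the value was 0.19 without untreated replicate 2. Rora went the other way, with 90.0 and 73.9 CPM in treated B6 muscles, against 126 and 213 CPM in untreated B6 muscles (-1.0 ± 0.54, edgeR adjusted p = 0.762; -0.66 without untreated replicate 2). Dbp and Tef were wholly higher and Rora wholly lower in treated B6 muscle, beside 21.8% and 22.5% of genes. In kidney 6 factors (Ciart, Dbp, Tef, Hlf, Bhlhe41 and Rora) were wholly higher and 0 wholly lower, beside 12.1% and 24.2% of genes. Their log2 fold changes there were small, from 0.29 ± 0.16 for Rora to 0.53 ± 0.20 for Hlf (SE). By CPM, Ciart and Bhlhe40 were wholly higher in treated B6 lung and Tef and Bhlhe40 in treated B6 skin, with 0 wholly lower in either, beside 8.82% higher and 10.1% lower of all genes in lung and 13.3% and 45.4% in skin. The scale mattered in both tissues. On TMM log2 CPM Bhlhe40 overlapped in B6 lung, with 1 treated library at 7.29 and 1 untreated at 7.30. In B6 skin Dbp was then also apart, at 7.04 and 6.93 in treated libraries, against 6.80 and 5.56 in untreated libraries, as was Bhlhe41, at 5.90 and 5.79 in treated libraries, against 5.52 and 3.74 in untreated libraries.

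Whether the 4F and B6 effects differ was asked by the difference of the log2 fold changes, 4F minus B6, in the same fit. 0 of the 8 were called in any tissue by edgeR or DESeq2, beside 0% of all genes by edgeR, and 4 of 48 pairs had an unadjusted p under 0.05: Ciart in muscle (1.31 ± 0.47), Nfil3 in liver (1.26 ± 0.47), Bhlhe40 in spleen (-1.11 ± 0.42) and Bhlhe41 in spleen (-2.01 ± 0.72, all SE). Among all genes, 0.861% in lung to 9.93% in liver had an edgeR unadjusted p under 0.05 for the difference. DESeq2 called 19 of 18092 genes for it in kidney, 10 of 14712 in liver, 0 of 19289 in lung, 34 of 16427 in muscle, 65 of 17514 in skin and 53 of 16413 in spleen. 8 of 8 differences were below 0 in spleen (median -1.23, all genes 0.01), and the median was -0.59 with 7 of 8 below 0 without the libraries that stand apart, 1 in each untreated arm. In liver the median was -0.76, and with untreated B6 replicate 2 left out it was 0.00, with 4 of 8 above 0. The other tissue medians were -0.08 in kidney, -0.11 in lung, 0.04 in muscle and -0.42 in skin, where without untreated 4F replicate 1, which stands apart, 0 of 8 were above 0 (median -0.57). With any 1 library left out these medians ran from -0.19 to 0.00 in kidney, -0.61 to 0.06 in lung, -0.49 to 0.28 in muscle and -0.57 to -0.08 in skin.

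Other genes of the pathway were read from 4 lists. None of their members was called in any tissue or contrast. In the core clock list of 15 genes, 4F muscle had 5 above 0 and 10 below (median -0.29, all genes -0.04), and 5 of the 15 had an edgeR unadjusted p under 0.05. B6 muscle had 3 above 0 and 12 below (median -0.13, all genes -0.01), with 4 under that threshold. Of all genes, 9.19% in 4F muscle and 6.18% in B6 muscle were under it. Per3 was at 68.7 ± 8.75 CPM in treated 4F muscles and 49.2 ± 4.71 CPM in untreated ones, and Arntl at 11.5 ± 1.19 CPM in treated 4F muscles and 17.5 ± 2.43 CPM in untreated ones (SD, n = 3 each). Arntl in skin was likewise 12.8 ± 3.50 CPM in treated 4F skins against 27.1 ± 7.88 CPM in untreated ones, and 7.46 ± 1.07 CPM in treated B6 skins against 21.0 ± 9.84 CPM in untreated ones (SD, n = 2 each). Ciart was wholly higher in treated 4F muscle and kidney, and Arntl was wholly lower in muscle but overlapped in kidney, at 5.84 ± 2.80 CPM in treated 4F kidneys and 6.88 ± 2.44 CPM in untreated ones (SD, n = 3 each). Arntl was wholly lower in treated B6 muscle too, at 7.63 ± 1.13 CPM against 17.3 ± 2.35 CPM in untreated B6 muscle (SD, n = 2 each), where Ciart overlapped between the arms. The list of 8 PAR bZIP target genes had 8 of 8 above 0 in B6 liver (median 0.94, all genes -0.08) and 4 of 8 in 4F liver (median 0.02, all genes 0). Without untreated B6 replicate 2, which stands apart, 6 of 8 were above 0 in B6 liver (median 0.36). In skin, where Dbp was above 0 in both genotypes, the list had 1 of 7 tested genes above 0 in 4F mice (median -1.02, but 0.22 with 4 of 7 above 0 without untreated replicate 1) and 3 of 7 in B6 mice (-0.66). In 4F muscle it had 5 of 7 above 0 (median 1.31, and 0.53 without untreated replicate 3, which stands apart). 4 liver markers summed to between 2.3 and 305 CPM in treated 4F muscles, against 0.0767 to 27.4 CPM in untreated ones. The part of liver transcripts in this muscle result was not tested. Alas1, the first enzyme of heme synthesis, was at 1150 ± 616 CPM in treated and 324 ± 39.9 CPM in untreated B6 livers (SD, n = 2 each).

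The clock-driven list of 9 symbols, 8 of them matched (the other, Gm129, is an older name of Ciart), had its medians between -0.20 and 0.22 in 4F and between -0.44 and 0.40 in B6 tissues. The glucocorticoid-responsive list of 10 genes, 2 of which (Per1 and Tsc22d3) also stand in the clock lists, was mostly below 0 in B6 mice. It had 0 of 10 above 0 in B6 kidney (median -0.75) and B6 muscle (-0.82), and medians of -0.94 in liver, -0.22 in lung, -0.83 in skin and -0.46 in spleen. Without untreated B6 replicate 2 the medians were -0.30 in kidney, 0.30 in liver, -0.18 in lung, 0.33 in muscle, -0.23 in skin and -0.25 in spleen. In 4F mice its medians were between 0.07 and 0.27. Fkbp5 in B6 liver was at 37.8 and 27.2 CPM in treated libraries, against 27.4 and 511 CPM in untreated libraries, so that 1 untreated library was high. The high library was the one in which Ciart, Dbp and Tef were lowest. In 4F livers Fkbp5 was at 141, 117 and 163 CPM in treated libraries, against 36.9, 330.0 and 79.6 CPM in untreated libraries. There the high library had Ciart at 49.7 and Tef at 407 CPM, the highest untreated values. Dbp in that library was at 61.4 CPM, between the 35.3 and 117 CPM of the other untreated 4F livers. The part of this list in the levels of the 8 factors was not tested.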

How the data were processed

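The authors extracted total RNA with a Qiagen RNeasy kit and made libraries with the Illumina TruSeq Stranded Total RNA kit, per the labels' protocols. The authors deposited raw counts per Ensembl gene for 60 libraries, on GRCm38 per the submitters' processing notes; no source used here gives the aligner, the counter or the strand setting. The deposited counts of each library matched its column in the series table. Symbols, coordinates and exon lengths came from the GENCODE annotation, and 147 of 52636 IDs had no symbol there (at most 0.012% of any library). Totals ran from 18517963 to 43176392 counts.

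The members, gene lists and libraries that stand apart were chosen with earlier results of these data known. In each tissue, 10 libraries were fitted in edgeR 4.0.16 (R 4.3.3, limma 3.58.1) with 4 arms and sex, after filterByExpr (minimum count 10, total 15) and TMM scaling, by the robust quasi-likelihood test with Benjamini-Hochberg adjustment over all genes tested (threshold 0.05). The fit was tested on simulated counts with known changes, drawn with the same dispersion for every gene and without outlying libraries. That simulation does not cover the spread between the libraries used here. CPM are counts per 1000000 counts of the library; correlations used TMM log2 CPM with a prior count of 2, centred on each tissue. Every library is printed for each factor in its highest tissue, and where arms do not overlap with a log2 fold change of at least 0.5 in 4F or 1 in B6 mice. Likeness names the 3 genes with the highest and the 1 with the lowest Pearson's r. Alternatives were DESeq2 1.42.0, its size factors, no filter, no sex term, 1 genotype alone, 4F females alone, leaving out each library, and leaving out the 6 libraries apart; leaving libraries out of the gene lists was chosen after seeing the data. Arms share no replicate numbers in the titles, so nothing was paired.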

Additional observations from a re-analysis of the deposited data

Results flagged for a closer look

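Bhlhe40 and Bhlhe41 in spleen were lower in treated 4F and higher in treated B6 libraries, with no overlap between arms by CPM. Of all genes, 5.33% were wholly lower in treated 4F spleens and 21.2% wholly higher in treated B6 spleens. Bhlhe40 had a log2 fold change of -0.47 in 4F spleens and 0.64 in B6 spleens, a difference of -1.11 ± 0.42 (SE, edgeR adjusted p = 0.553). Its 4F arms were 110 CPM (treated) and 111 CPM (untreated) at their nearest and overlapped with TMM scaling. The 4F value was -0.27 without untreated 4F replicate 1, and the B6 value 0.29 without untreated B6 replicate 2, which stands apart. Bhlhe41 had -0.79 in 4F spleens and 1.22 in B6 spleens, a difference of -2.01 ± 0.72 (SE, edgeR adjusted p = 0.553), and the B6 value was 0.70 without untreated B6 replicate 2. Rora was wholly higher in treated B6 kidney (0.29), liver (0.55) and spleen (0.62), as were 12.1%, 9.11% and 21.2% of genes there. It was wholly lower in treated B6 muscle (-1.0), as were 22.5% of genes, and the difference between these tissues was not tested. Without untreated B6 replicate 2, which stands apart in liver and spleen, the value was 0.21 in liver and 0.06 in spleen.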

How the results depend on the processing

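Of 221 settings of the count of factors called, 216 gave the reported count of 0 and 5 did not. In 4F kidney 1 factor, Ciart, was called with no filter on low counts (adjusted p = 9.31e-11, among 288 genes called of 29662) and by DESeq2 (adjusted p = 0.0175, among 17 genes). With each library left out in turn, the count of factors called ran from 0 to 7 in B6 liver, 0 to 4 for the difference in liver and 0 to 1 in B6 spleen, the upper value each time without untreated B6 replicate 1, where the lone untreated library is assumed to vary like the other arms; 6113, 5672 and 2178 genes were then called in all. The cause was not tested. Of 1768 alternative fold changes, 1652 lay within 1 SD of the reported value (the SD of log2 CPM within arms), 116 lay further away, and 68 of 144 values changed sign under at least 1 alternative. Mean levels by TMM over all libraries were 446 for Bhlhe40 in liver and 83.1 for Bhlhe41 in muscle, against 301 and 54.3 CPM, because this scaling raises liver and muscle. No paired analysis was possible because the title numbers are not shared between arms. Each B6 arm had 2 libraries per tissue and each fit 5 residual degrees of freedom.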
